A study of Mus musculus with 8 samples.

Results

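The expression of 10 Wnt pathway genes was examined across mouse embryonic fibroblasts (MEFs) grown on stiff or soft substrates. The genes were chosen by name, with earlier results of these data known. They comprised the ligand Wnt5a, the secreted antagonists Sfrp1, Sfrp2 and Dkk2, and Dkk3, which is grouped with the antagonists by family. The others were the receptors Fzd1, Fzd2 and Fzd7, the nuclear factor Tcf7l2 and Axin2, a negative-feedback target of canonical signalling. Of the 10, 8 were among the 12528 genes of the expression table. Dkk2 and Axin2 were not listed there and were not analysed here. Littermate WT and Cav1KO mice were the source of the MEFs, which had been immortalized. Sparse cells spent 24 h on fibronectin-coated stiff or soft polyacrylamide hydrogels before their polyadenylated RNA was sequenced. Caveolin-1, the product of Cav1, is the main coat protein of caveolae, and the study asked how it affects the response of cells to substrate stiffness. Crossing genotype (WT or Cav1KO) with substrate (stiff or soft) gave 4 groups of 2 libraries each. The labels name no further treatment in any group, and how the cells were immortalized is not given in the sources used here. The sources used here do not say how many lines or embryos stand behind a genotype, so genotype and cell line cannot be told apart.

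Wnt ligands are secreted, lipid-modified proteins that bind Frizzled receptors on the cell surface. In the canonical branch, binding to a Frizzled and an LRP co-receptor stabilises beta-catenin, which then acts on target genes with TCF/LEF factors, whereas the non-canonical branches signal to the cytoskeleton and to cell polarity without beta-catenin. Fibroblasts are a known source of Wnt ligands and of secreted Wnt antagonists in many tissues.

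Values are TMM-scaled CPM, that is, reads of a gene relative to an effective library size. Recovered depth was 17089836 to 19944952 reads per library, and a count of 0 allows up to 3 reads, or 0.151 to 0.181 CPM, for counting error only. The knockout showed in its target, since Cav1 lay between 949.8 and 1157 CPM in WT and never above 0.411 CPM in Cav1KO libraries. Of 10 fibroblast markers, 8 were listed, and their summed level on stiff was 9001 to 9187 CPM in WT and 4318 to 5413 CPM in Cav1KO libraries. On soft it was 11453 to 11650 CPM and 12976 to 13032 CPM. Thy1 and Lum were not listed. None of the 7 epithelial, 5 endothelial, 5 skeletal muscle or 4 neural crest and glia markers was listed, and of 6 macrophage and blood markers only Cd68 was, at 4.55 CPM or less. The fibroblast marker sum thus moved with substrate, as did most values below, and it moved more in Cav1KO cells. Its part in those values was not tested. Single markers did not all follow the sum. In WT cells Col1a1 alone ran the other way, at 2612 and 2515 CPM on stiff and 2035 and 2273 CPM on soft. On soft, S100a4 was 864 and 816 CPM in WT and 223 and 231 CPM in Cav1KO libraries. Pdgfrb there was 130 and 118 CPM in WT and 256 and 251 CPM in Cav1KO libraries. In bulk RNA, fewer cells of a kind and less RNA per cell cannot be told apart. The 2 Cav1KO stiff libraries differed most in this sum, the second being the lower. The members' calls with stiffness in Cav1KO cells and between genotypes on stiff are also given without the second library. For other pathway genes the value without it is given where it ends a call on a gene named below.

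Promoter sequence was taken from RefSeq (GRCm38.p6) as 250 bases before to 50 bases after a gene's start in that source, and was found for Sfrp2, Fzd1, Fzd7 and Tcf7l2 among the listed members. The Fzd1 and Fzd7 windows lie wholly upstream of the gene coordinates given below, which come from GENCODE. Those of Fzd1 and Fzd7 are shown because both receptors had their highest level in WT soft cells, and that of Sfrp2 because it was the member with the largest rise in Cav1KO cells. The sequences were searched on both strands for GGAATG, a core motif of TEAD factors, and for CTTTGNT, a core motif of TCF/LEF factors. GGAATG occurs in 14.7% and CTTTGNT in 18.6% of 32851 promoter windows of the same length, and capitals mark a match.
Sfrp2, chr3:83766071-83766370, plus strand: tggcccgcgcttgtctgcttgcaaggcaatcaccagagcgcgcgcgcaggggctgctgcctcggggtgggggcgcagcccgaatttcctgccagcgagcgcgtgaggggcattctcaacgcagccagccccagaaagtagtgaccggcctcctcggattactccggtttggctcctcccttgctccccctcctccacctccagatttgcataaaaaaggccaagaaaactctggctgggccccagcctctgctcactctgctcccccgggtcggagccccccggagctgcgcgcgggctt
Fzd1, chr5:4758167-4758466, minus strand: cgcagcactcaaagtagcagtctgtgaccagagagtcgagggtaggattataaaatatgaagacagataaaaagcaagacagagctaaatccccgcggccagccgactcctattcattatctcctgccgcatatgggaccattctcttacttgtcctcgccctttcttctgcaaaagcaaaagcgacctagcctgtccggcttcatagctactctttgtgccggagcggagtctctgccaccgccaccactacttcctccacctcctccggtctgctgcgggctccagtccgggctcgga
Fzd7, chr1:59481897-59482196, plus strand: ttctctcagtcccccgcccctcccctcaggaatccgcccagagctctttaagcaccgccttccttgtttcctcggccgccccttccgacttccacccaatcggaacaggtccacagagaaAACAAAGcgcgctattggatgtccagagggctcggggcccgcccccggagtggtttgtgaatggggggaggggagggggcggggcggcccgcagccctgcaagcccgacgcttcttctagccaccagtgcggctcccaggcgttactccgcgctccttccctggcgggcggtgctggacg
Of the 2 Tcf7l2 windows, not shown, the one at the downstream start holds 1 match to CTTTGNT, at base 237. The Fzd7 window holds 1 match to CTTTGNT, on the minus strand at base 121, and no match to GGAATG. The Sfrp2 and Fzd1 windows hold these letters nowhere, which says nothing of the factors themselves. The GC content was 66.0% for Sfrp2, 54.0% for Fzd1 and 66.7% for Fzd7.

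Most of the listed members were lower on stiff substrate, in WT and in Cav1KO cells alike. Every one of the 8 listed members had its lower mean on the stiff substrate in WT and in Cav1KO cells. The libraries of stiff and soft did not overlap for any of them, although those of Tcf7l2 in WT cells came within rounding at 21.3 CPM. For Sfrp2 in WT cells this rests on 0 against 3 reads per library. How many of all genes share this direction or lack of overlap was not counted, so neither is a result about the members. An unadjusted limma p under 0.05 was met by 55.3% of all genes in WT and by 61.2% in Cav1KO cells. In WT cells, 5 of 8 passed the test as lower (Wnt5a, Dkk3, Fzd1, Fzd2 and Fzd7) and 0 as higher, where 26.3% of all 12494 genes tested were called lower and 22.1% higher. In Cav1KO cells, 7 of 8 were called lower (Wnt5a, Sfrp1, Sfrp2, Dkk3, Tcf7l2, Fzd1 and Fzd2) and 0 higher, against 28.2% and 27.9% of all genes. Without the second Cav1KO stiff library these 7 were again the ones called, with differences of -0.36 for Wnt5a, -0.59 for Sfrp1, -0.80 for Sfrp2, -0.55 for Dkk3, -0.46 for Tcf7l2, -1.06 for Fzd1 and -0.43 for Fzd2. The median difference on the log2(CPM + 1) scale was -0.42 over 7 members in WT cells, without Sfrp2, which was at or under the floor of 3 reads there, and -0.55 over 8 members in Cav1KO cells. Over all genes it was -0.02 in each genotype. Since the members were chosen with earlier results of these data known, these shares and medians are descriptive and not a test of the set. Tests were two-sided limma contrasts on log2(CPM + 1) with Benjamini-Hochberg adjustment over all genes and a threshold of 0.05, and log2 fold changes on this scale understate the change of low genes. Nothing in the labels says that the libraries of a group came from separate cultures, so p-values measure the spread between these libraries, which may be technical.

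**Figure D1:**
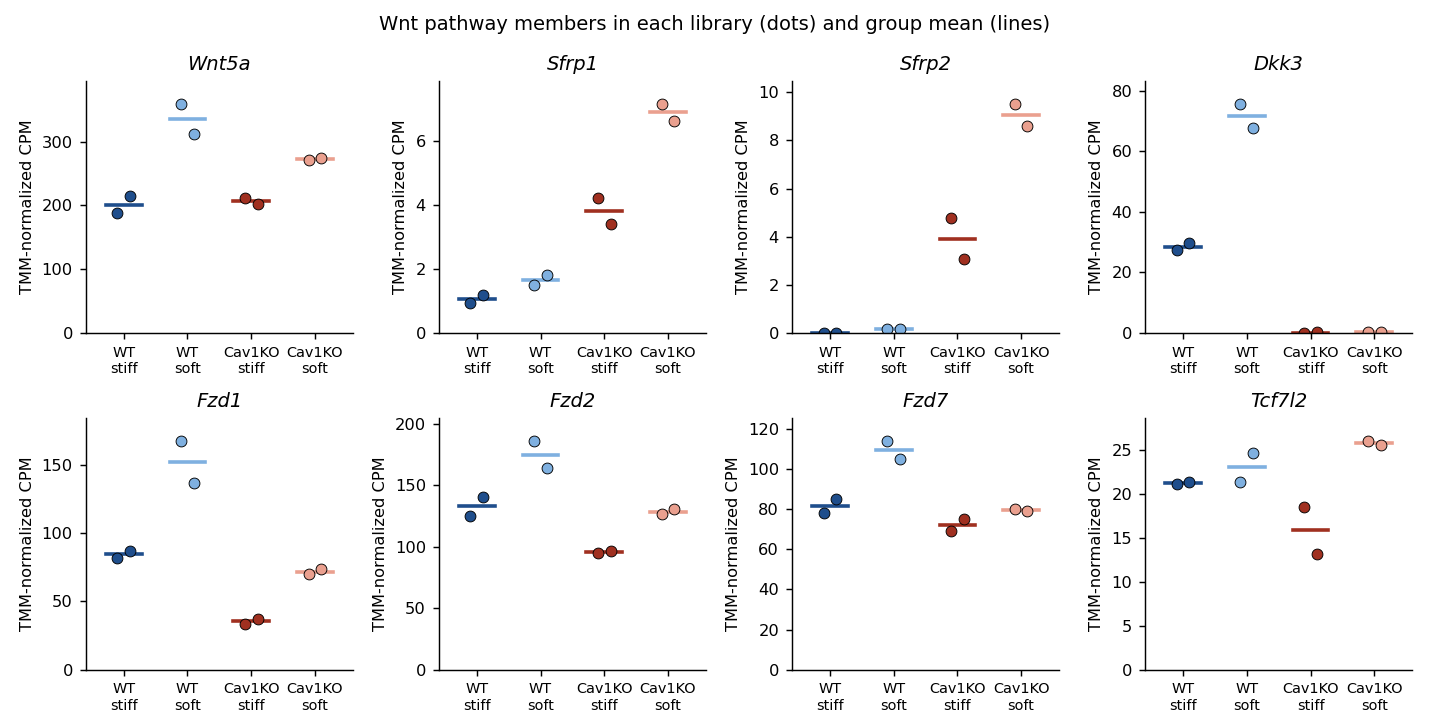
Levels of the 8 listed members in each of the 8 libraries, as TMM-normalized CPM on linear axes that start at 0. Dots are libraries and lines are means of the 2 libraries of a group. Soft dots lie above stiff dots of the same genotype in all 8 panels, Dkk3 is near 0 in Cav1KO cells and Sfrp2 is near 0 in WT cells.

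Wnt5a (ENSMUSG00000021994, GRCm38 chromosome 14, 28504750 to 28527448, plus strand) encodes a ligand known mainly for non-canonical signalling. It stood at 188 and 215 CPM on stiff and at 359 and 312 CPM on soft substrate in WT libraries. For the knockout the stiff libraries read 212 and 203 CPM and the soft ones 272 and 275 CPM. The soft libraries were thus the high ones in both genotypes, and the stiff libraries of the genotypes overlapped. Wnt5a fell on the stiff substrate in WT cells (log2 fold change -0.73, SE 0.092, limma adjusted p = 0.000370), the soft mean being 1.67 times the stiff mean. In Cav1KO cells it fell by 0.40 on the log2 scale (SE 0.092, limma adjusted p = 0.00615), with a ratio of means of 1.32. The difference between these effects, -0.34 (95% interval -0.63 to -0.04), missed the threshold (limma adjusted p = 0.111). On the stiff substrate the genotypes differed by 0.04 (95% interval -0.17 to 0.26, limma adjusted p = 0.710). On soft, Wnt5a was lower in Cav1KO cells (log2 fold change -0.29, SE 0.092, limma adjusted p = 0.0264), a call that passed in 14 of 18 alternatives. Among the settings that cost the call were leaving out the first WT soft library (-0.19) and leaving out either Cav1KO soft library. A 3.08% share of its 60-nt transcript windows is also part of Gm2670 on the opposite strand, and reads from there cannot be told apart if strand was not used in counting.

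Wnt5a was the most abundant of the 7 ligands listed of 19 Wnt genes, compared per kb of exonic length. On stiff it made up 59.5% of the summed ligand signal in WT and 65.7% in Cav1KO cells, and on soft 61.6% and 54.7%. Behind it, the makeup differed between the genotypes. Wnt5b, its closest paralog, made up 29.3% and 23.2% in WT stiff and soft but 1.62% and 1.84% in Cav1KO cells. Wnt10a and Wnt4 made up 14.5% and 9.37% in Cav1KO stiff and 10.4% and 13.7% in Cav1KO soft cells, where in WT cells Wnt10a had 0 reads in all 4 libraries and Wnt4 made up 0.591% on stiff and 0.635% on soft. Among the other ligands, Wnt5b was lower in Cav1KO cells on stiff (log2 fold change -3.66, limma adjusted p = 3.00e-07) and soft (-3.42, adjusted p = 4.18e-07). Wnt4 was higher on stiff (3.02, adjusted p = 4.98e-07) and soft (3.72, adjusted p = 1.41e-07). Wnt10a was at least 89.5-fold higher on stiff and at least 95.7-fold higher on soft, against a floor of 3 reads per WT library. Wnt6 was lower on stiff than on soft substrate in WT (-1.44, adjusted p = 6.75e-05) and Cav1KO cells (-1.69, adjusted p = 1.96e-05).

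**Figure D2:**
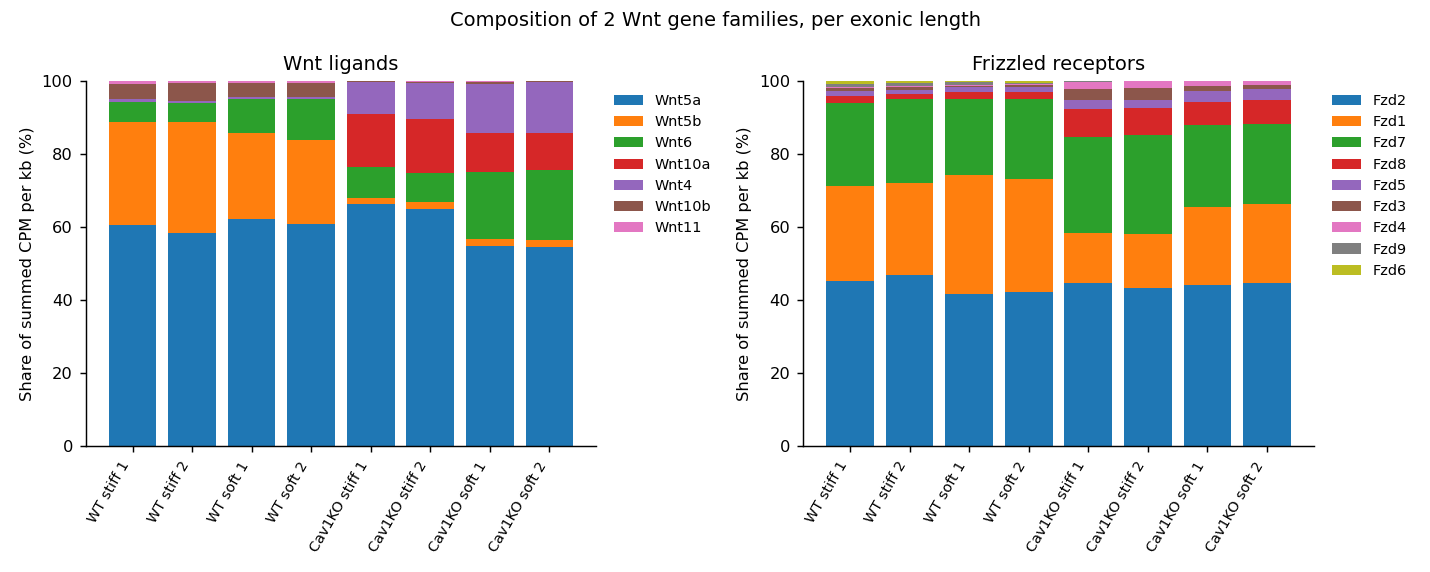
Share of each listed gene in the summed CPM per kb of exonic length of 7 Wnt ligands and of 9 Frizzled receptors, in percent, with 1 bar per library. Wnt5a is the largest ligand share in every library, Wnt5b is visible in WT bars and Wnt4 and Wnt10a in Cav1KO bars, and Fzd1 takes 25.3% or more in WT and 21.8% or less in Cav1KO libraries.

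Among the members, Sfrp2 and Dkk3, which both encode secreted proteins, had the largest genotype difference in each direction. Sfrp1 and Sfrp2 encode soluble proteins with a Frizzled-like ligand-binding domain, and both were higher in Cav1KO cells. Dkk3, a divergent member of the Dickkopf family of secreted glycoproteins, was down to a few reads there. It is counted with the antagonists by family, and its action on Wnt signalling was not tested. On stiff, 2 of 8 members were called higher in Cav1KO cells (Sfrp1 and Sfrp2, background 25%) and 4 lower (Dkk3, Fzd1, Fzd2 and Tcf7l2, background 26.6%). Without the second Cav1KO stiff library these differences were 1.34 for Sfrp1, 2.53 for Sfrp2, -4.88 for Dkk3, -1.30 for Fzd1 and -0.47 for Fzd2, all still called, while the call on Tcf7l2 was lost. On soft, 2 were called higher (the same 2, background 24.1%) and 5 lower (Dkk3, Fzd1, Fzd7, Fzd2 and Wnt5a, background 29.9%). The stiffness and genotype contrasts share libraries and are not independent of each other.

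Sfrp2 (ENSMUSG00000027996, chromosome 3, 83766321 to 83774316, plus strand) had 0 reads in both WT stiff libraries and 3 reads in each WT soft library, or 0.181 and 0.161 CPM. In Cav1KO libraries the stiff values were 4.77 and 3.07 CPM and the soft values 9.51 and 8.59 CPM. All Cav1KO libraries were above all WT libraries. On stiff it was at least 24.4-fold higher in Cav1KO cells, against a floor of 3 reads per WT library (limma adjusted p = 1.84e-05). On soft the ratio of summed reads was 53.0 (95% exact interval 24.1 to 145, counting error only; limma adjusted p = 2.84e-06). Within Cav1KO cells Sfrp2 fell on the stiff substrate (log2 fold change -1.05, SE 0.18, limma adjusted p = 0.00145), and by 0.80 (adjusted p = 0.00776) without the second Cav1KO stiff library. Both WT groups were at or under the floor, so no stiffness effect can be given for WT cells. Of its 60-nt transcript windows, 11.1% lie also in Gm26771 on the opposite strand.

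Sfrp1 (ENSMUSG00000031548, chromosome 8, 23411502 to 23449632, plus strand) had 19 and 21 reads in the WT libraries on stiff (a mean of 1.08 CPM) and 25 and 34 reads on soft (1.51 and 1.83 CPM). For the knockout the stiff libraries read 4.24 and 3.40 CPM and the soft ones 7.16 and 6.63 CPM. The order of the 4 groups was the same as for Sfrp2, with no overlap between neighbours. Cav1KO means were 3.55 times the WT mean on stiff (log2 fold change 1.21, SE 0.16, limma adjusted p = 0.000298) and 4.13 times on soft (1.57, SE 0.16, limma adjusted p = 6.10e-05). It fell on stiff in Cav1KO cells (-0.72, limma adjusted p = 0.00455). In WT cells the difference was -0.36 (95% interval -0.72 to -0.0043, limma adjusted p = 0.0872).

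Dkk3 (ENSMUSG00000030772, chromosome 7, 112116017 to 112159057, minus strand) stood at 27.3 and 29.7 CPM on stiff and at 75.6 and 67.7 CPM on soft substrate in WT libraries. The Cav1KO stiff libraries had 0 and 4 reads and the Cav1KO soft libraries 9 reads each, or 0.471 and 0.463 CPM. The WT level was 250 times the Cav1KO level on stiff (ratio of summed reads, 95% exact interval 97.5 to 920; limma adjusted p = 6.74e-08) and 153 times on soft (96.6 to 259; adjusted p = 3.01e-08). In WT cells Dkk3 fell on stiff (log2 fold change -1.30, SE 0.15, limma adjusted p = 0.000224), the soft mean being 2.52 times the stiff mean, the largest ratio among the members called there. In Cav1KO cells it was called lower on stiff (-0.41, limma adjusted p = 0.0398), from 4 against 18 reads in all, a ratio of 4.11 with an exact interval of 1.35 to 16.7. That call passed the threshold in 7 of 18 alternatives (adjusted p 0.0106 to 0.396), and was lost when any library other than the second Cav1KO stiff library was left out, with values of -0.27 to -0.41.

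Among the antagonists listed, Igfbp4, which binds insulin-like growth factors and can also bind Frizzled and LRP receptors, showed the largest genotype difference. It was between 1567 and 4284 CPM in WT and never above 11.6 CPM in Cav1KO libraries (log2 fold change -7.80 on stiff, limma adjusted p = 2.28e-09, and -8.39 on soft, adjusted p = 2.51e-09). Per kb, it made up 97.7% and 97.6% of the summed signal of the 4 listed antagonists in WT stiff and soft cells. In Cav1KO stiff and soft cells Sfrp2 held 43.2% and 50.4%, Sfrp1 20.9% and 18.9%, Igfbp4 35.0% and 29.1%, and Dkk3 0.863% and 1.67%. Among these 4, the signal thus came mainly from Igfbp4 in WT cells and mainly from Sfrp2, Igfbp4 and Sfrp1 in Cav1KO cells. The Cav1KO shares are of a low total, with Sfrp2 at 1.82 and 4.20 CPM per kb on stiff and soft. Igfbp4 in WT cells stood at 370 and 889 CPM per kb. Notum, kept under ligand modification, is not among the 4. Its level was 17.3 and 30.5 CPM per kb in WT and 1.66 and 2.40 in Cav1KO stiff and soft cells.

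The member receptors had lower means on stiff in both genotypes, and of their 6 stiffness effects all but that of Fzd7 in Cav1KO cells passed the test. Fzd1 (ENSMUSG00000044674, chromosome 5, 4753839 to 4758035, minus strand) stood at 82.1 and 87.2 CPM on stiff and at 168 and 137 CPM on soft substrate in WT libraries. In Cav1KO libraries the stiff values were 33.8 and 37.3 CPM and the soft values 69.7 and 73.5 CPM. The highest Cav1KO library lay below the lowest WT library. Fzd1 fell on stiff in WT (log2 fold change -0.83, SE 0.11, limma adjusted p = 0.000408) and in Cav1KO cells (-0.99, SE 0.11, limma adjusted p = 0.000115), the soft mean in Cav1KO cells being 2.01 times the stiff mean. It was lower in Cav1KO cells on stiff (-1.23, limma adjusted p = 2.79e-05) and on soft (-1.07, limma adjusted p = 5.99e-05). The difference between its stiffness effects was 0.16 (95% interval -0.18 to 0.50, limma adjusted p = 0.473).

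Fzd2 (ENSMUSG00000050288, chromosome 11, 102604396 to 102608058, plus strand), per kb the most abundant Frizzled in every group, stood at 125 and 141 CPM on stiff and at 186 and 164 CPM on soft substrate in WT libraries. For the knockout the stiff libraries read 95.3 and 96.5 CPM and the soft ones 127 and 131 CPM. The Cav1KO soft libraries overlapped the WT stiff ones. Fzd2 fell on stiff in WT (log2 fold change -0.40, SE 0.088, limma adjusted p = 0.00643) and in Cav1KO cells (-0.42, SE 0.088, limma adjusted p = 0.00372). The WT call was lost without the first WT soft library (-0.30, adjusted p = 0.0541). Fzd2 was lower in Cav1KO cells on stiff (-0.46, limma adjusted p = 0.00250) and soft (-0.44, limma adjusted p = 0.00313).

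Fzd7 (ENSMUSG00000041075, chromosome 1, 59482424 to 59486955, plus strand) stood at 77.9 and 85.2 CPM on stiff and at 114 and 105 CPM on soft substrate in WT libraries. In Cav1KO libraries the stiff values were 69.3 and 75.0 CPM and the soft values 79.8 and 79.1 CPM. The WT soft libraries stood above all others. Fzd7 fell on stiff in WT cells (log2 fold change -0.42, SE 0.083, limma adjusted p = 0.00347). In Cav1KO cells the difference was -0.14 (95% interval -0.33 to 0.05, limma adjusted p = 0.186), and the difference between the effects was -0.28 (95% interval -0.55 to -0.01, limma adjusted p = 0.128). Fzd7 was lower in Cav1KO cells on soft (-0.45, limma adjusted p = 0.00180), and differed by -0.17 on stiff (95% interval -0.36 to 0.02, limma adjusted p = 0.111).

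Of the summed signal per kb of the 9 listed Frizzled genes, Fzd2 made up 46.1% on stiff and 42.0% on soft in WT cells, with 44.0% and 44.4% for the knockout. Fzd1 likewise made up 25.6% and 31.8% in WT against 14.2% and 21.5% in Cav1KO cells, and Fzd7 between 21.2% and 26.8% of each group. Fzd8 made up 1.60% and 2.07% in WT against 7.61% and 6.54% in Cav1KO cells. The 3 receptors therefore held most of the Frizzled signal in all 4 groups.

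Tcf7l2 (ENSMUSG00000024985, chromosome 19, 55741820 to 55933654, plus strand), which encodes a DNA-binding partner of beta-catenin, stood at 21.1 and 21.3 CPM on stiff and at 21.3 and 24.7 CPM on soft substrate in WT libraries. For the knockout the stiff libraries read 18.5 and 13.2 CPM and the soft ones 26.0 and 25.6 CPM. Its lowest and its highest group were thus both Cav1KO. It fell on stiff in Cav1KO cells (log2 fold change -0.69, SE 0.15, limma adjusted p = 0.00497), and by 0.46 (adjusted p = 0.0190) without the second Cav1KO stiff library. In WT cells the difference was -0.11 (95% interval -0.46 to 0.24, limma adjusted p = 0.594). On stiff it was called lower in Cav1KO cells (-0.42, limma adjusted p = 0.0474), a call that passed in 5 of 18 alternatives. It was lost when any library other than the first Cav1KO stiff library was left out, and the value was -0.19 (adjusted p = 0.276) without the second Cav1KO stiff library. On soft the genotypes differed by 0.16 (95% interval -0.19 to 0.51, limma adjusted p = 0.398).

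The difference between genotypes in the stiffness effect was tested for each member as WT effect minus Cav1KO effect. One member of 8 was called lower (Dkk3, background 6%) and 0 higher (background 4.47%), and 5 of 8 had an unadjusted limma p under 0.05, as did 34.7% of all genes. For Dkk3 the difference was -0.89 (SE 0.21, limma adjusted p = 0.0373). It rests on Cav1KO libraries at 0 to 9 reads, where the log2(CPM + 1) scale compresses a change: with edgeR on the recovered reads it was 0.65 (adjusted p = 0.554). Leaving out any library except the first Cav1KO stiff library also cost the call, with adjusted p-values of 0.0516 to 0.137. For Tcf7l2 the difference was 0.58 (limma adjusted p = 0.101), with values from 0.35 to 0.81 in the alternatives. For Sfrp2 it was 0.82 (limma adjusted p = 0.0715), with values from -3.49 to 1.08. Each was highest without the first Cav1KO stiff library, the only alternative in which Tcf7l2 passed. Sfrp2 passed there and with a pseudocount of 5 (0.61, limma adjusted p = 0.0250). A call in 1 genotype alone, as for Fzd7 in WT or Tcf7l2 in Cav1KO cells, was therefore not shown to differ between genotypes.

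**Figure D3:**
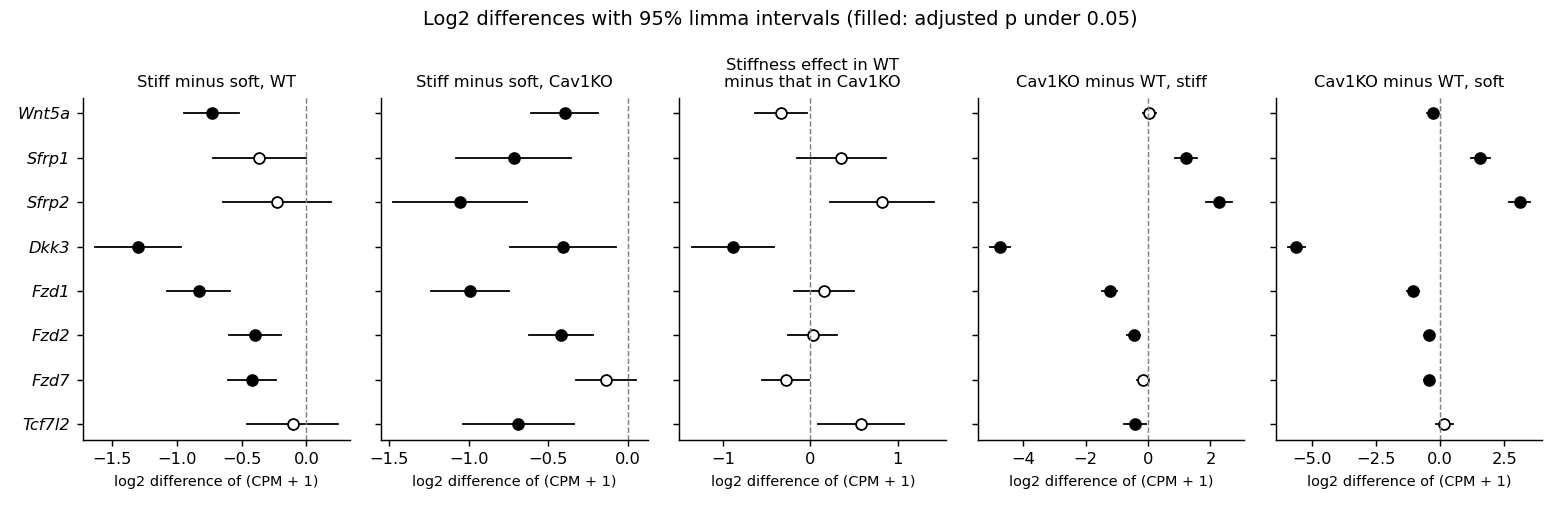
Differences of the 8 listed members on the log2(CPM + 1) scale in the 5 comparisons, with 95% limma intervals, and filled points where the adjusted p is under 0.05. Points in both stiffness panels lie left of 0, Dkk3 lies furthest left and Sfrp2 furthest right between genotypes, and Sfrp2 in WT cells rests on 3 reads or fewer per library.

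In a hand-written list of 121 Wnt pathway genes ordered by role, 86 were listed and tested. This list too was chosen with earlier results of these data known, so its shares are descriptive. Among the 78 that are not members, 13 were called higher and 24 lower on stiff in WT cells, and 17 higher and 42 lower in Cav1KO cells. These are 16.7% and 30.8% in WT, where 22.1% and 26.3% of all genes were called, and 21.8% and 53.8% in Cav1KO cells, where 27.9% and 28.2% were. Their median difference was -0.16 in WT and -0.35 in Cav1KO cells, beside -0.02 over all genes in each. Between genotypes, 22 were higher (28.2%, background 25%) and 30 lower (38.5%, background 26.6%) in Cav1KO cells on stiff, and 29 higher (37.2%, background 24.1%) and 27 lower (34.6%, background 29.9%) on soft. In the test of the genotype difference, 7 had a higher and 3 a lower stiffness effect in WT (8.97% and 3.85%, background 4.47% and 6%). Without the second Cav1KO stiff library fewer of the 78 were called in each comparison that uses it, and fewer of all genes were called too. That refit leaves 1 library in the group, so its counts are not given as a result about these genes.

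Genes for ligand secretion and modification were called lower on stiff in both genotypes, for 3 of 3 genes (26.3% of all genes in WT and 28.2% in Cav1KO cells). Wls, which carries Wnt proteins to the cell surface, stood at 241 and 268 CPM on stiff and at 565 and 476 CPM on soft substrate in WT libraries. In Cav1KO libraries the stiff values were 143 and 164 CPM and the soft values 293 and 302 CPM. With stiffness it changed by -1.03 in WT (limma adjusted p = 0.000156) and -0.95 in Cav1KO cells (adjusted p = 0.000128). Porcn, the acyltransferase that lipidates Wnt proteins, fell by 1.03 (adjusted p = 0.00180) and by 1.25 (adjusted p = 0.000478). Notum, a carboxylesterase that removes the lipid, fell by 0.81 (adjusted p = 0.00172) and 0.45 (adjusted p = 0.0231), the latter call being lost without the second Cav1KO stiff library (-0.31, adjusted p = 0.118). Notum was also lower in Cav1KO than in WT cells, by -3.10 on stiff (adjusted p = 5.47e-07) and -3.46 on soft (adjusted p = 2.69e-07).

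R-spondins raise Frizzled levels at the membrane by binding Lgr receptors and the ligases Znrf3 and Rnf43. In this R-spondin axis, 4 of 6 tested genes were higher and 1 lower in Cav1KO cells on each substrate. Of all genes, 25% and 26.6% were so called on stiff and 24.1% and 29.9% on soft. The higher genes on stiff were Rspo1, Rspo2, Rspo3 and the ligase Rnf43, so the count gives no direction for Frizzled levels. The lower gene on stiff was Lgr4 (-0.38), a call lost without the second Cav1KO stiff library (-0.35). Rspo2 in WT libraries stood at 3.06 and 3.65 CPM on stiff and at 22.5 and 20.6 CPM on soft. The knockout had 83.5 and 84.8 CPM on stiff and 127 and 133 CPM on soft. All Cav1KO libraries were above all WT libraries, with log2 fold changes of 4.29 on stiff (limma adjusted p = 2.22e-08) and 2.54 on soft (adjusted p = 2.31e-07). Rspo2 fell on stiff in WT (-2.37, adjusted p = 1.38e-05) and in Cav1KO cells (-0.62, adjusted p = 0.000896), and these effects differed by -1.75 (adjusted p = 0.00131). Lgr4, an R-spondin receptor, also differed in its stiffness effect (-0.83, adjusted p = 0.0198), being called higher on stiff in Cav1KO cells (0.55, adjusted p = 0.00216) while the WT difference was -0.27 (adjusted p = 0.0596). Rnf43, outside the naming rule and chosen after its values were seen, had 0 reads in all 4 WT libraries and was at least 47.6-fold higher in Cav1KO cells on stiff and at least 65.4-fold higher on soft.

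Of 16 canonical readouts on the list, Axin2 among them, 10 were tested, some of which also hold another role. In WT cells 5 were higher and 1, Notum, lower on stiff, and in Cav1KO cells 4 were higher and 4 lower. Of the lower calls in Cav1KO cells, those on Notum, Rnf43 and Tcf7 were lost without the second Cav1KO stiff library (-0.31, -0.24 and -0.33). All genes were called higher and lower at 22.1% and 26.3% in WT and at 27.9% and 28.2% in Cav1KO cells, which also holds for the 2 roles that follow. Ccnd1, which encodes cyclin D1 and answers to many pathways besides Wnt, rose on stiff in WT (1.23, limma adjusted p = 3.42e-05) and in Cav1KO cells (0.45, adjusted p = 0.00110). Wisp1, a matricellular gene first described as Wnt-induced, rose by 0.60 (adjusted p = 0.00284) and 0.85 (adjusted p = 0.000349). Both thus ran in the opposite direction to Wnt5a, Dkk3, Fzd1 and Fzd2. The rise of Ccnd1 was larger in WT by the test of the difference (0.78, limma adjusted p = 0.00726). Without the second Cav1KO stiff library that difference was 0.74. In the same test 2 of the 10 readouts were called higher and 0 lower (20% and 0%, background 4.47% and 6%).

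Nuclear factors comprised 18 genes, all tested. In WT cells 2 were higher and 2 lower on stiff, which is 11.1% each way, and in Cav1KO cells 4 were higher and 11 lower (22.2% and 61.1%). Further, 2 had a higher stiffness effect in WT than in Cav1KO by the test of the difference (11.1%, background 4.47%), and 0 had a lower one (background 6%). These 2 were Ep300, an acetyltransferase that serves many transcription factors (1.25, limma adjusted p = 0.0260), and Bcl9, an adaptor of beta-catenin (0.83, adjusted p = 0.0359). Without the second Cav1KO stiff library both calls were lost (Ep300 1.06, adjusted p = 0.0565; Bcl9 0.65, adjusted p = 0.0691). Ctbp1, a co-repressor with many partners, was higher on stiff in Cav1KO cells (0.74, adjusted p = 5.70e-05). Tle2, a co-repressor, fell most of the 18 nuclear factors in both genotypes (-1.66, limma adjusted p = 0.000174, in WT and -1.95, adjusted p = 4.85e-05, in Cav1KO cells). Among the 16 receptors and co-receptors, 9 were lower and 1 higher on stiff in WT cells, and 8 lower and 2 higher in Cav1KO cells, that is 56.2% and 6.25%, and 50% and 12.5%. Fzd3 was higher on stiff in Cav1KO cells (0.85, adjusted p = 0.00215), opposite to Fzd1 and Fzd2. Fzd8 had a stiffness effect that was lower in WT than in Cav1KO cells (-0.64, adjusted p = 0.0434), a call lost without the second Cav1KO stiff library (adjusted p = 0.0979). Among the cytoplasmic transducers, Amer1, which binds APC, fell on stiff in Cav1KO cells (-1.44, adjusted p = 0.000344), and Tnks, a poly-ADP-ribosyltransferase that marks Axin for decay, had a higher stiffness effect in WT (0.81, adjusted p = 0.0471), which was lost without that library (0.58, adjusted p = 0.0882). Scrib, a polarity scaffold, rose on stiff in WT cells (0.88, adjusted p = 0.000319).

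**Figure D4:**
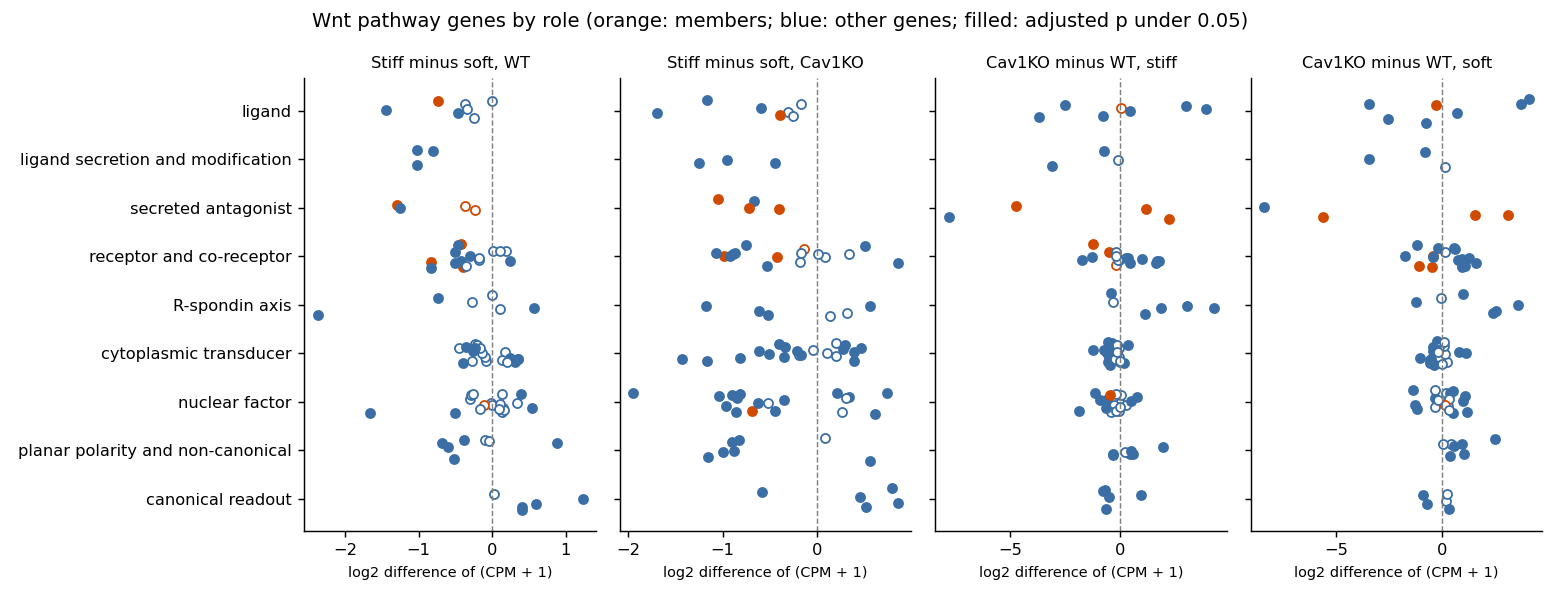
Differences of the 86 listed Wnt pathway genes by role on the log2(CPM + 1) scale in 4 comparisons, with members in orange, other genes in blue, and filled points where the limma adjusted p is under 0.05. Each gene is drawn once, under its first role. The 3 ligand secretion genes lie left of 0 in both stiffness panels, and canonical readouts lie mostly right of 0 in WT cells.

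Across the 8 libraries, which fall into 4 groups and share a scaling, the levels of Fzd1 and Fzd2 ran most alike among the members (Pearson's r = 0.989), followed by Sfrp1 and Sfrp2 (r = 0.987). Of 10063 candidate genes (10064 for Sfrp1 and Sfrp2) with a mean of at least 5 CPM, those most like each member were Zfand5 for Wnt5a (r = 0.993), Nhsl1 for Sfrp1 (0.995), Nek4 for Sfrp2 (0.998), Ensa for Dkk3 (0.999), Atf7ip for Tcf7l2 (0.989), Parn for Fzd1 (0.993), Rab2b for Fzd2 (0.995) and Cope for Fzd7 (0.993). Next in likeness were Tmub2, Fbln1, Sdk1, Klf6, Swap70, Fam134b, Lamtor2 and 1600012H06Rik, in the same order of members. None of these 16 genes is in the Wnt list. With so many candidates and 8 libraries in 4 groups, such r values describe the shape of the pattern only.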

How the data were processed

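Polyadenylated RNA (500 ng of total RNA per library) was sequenced as single reads of 60 nt from 8 libraries in 4 groups of 2, which the labels assign by genotype and substrate. The authors deposited 1 table of TMM-normalized CPM, a signal in which reads are scaled by each library's effective size. The submitters' processing notes name CASAVA 1.8.2, cutadapt, RSEM 1.2.3 and GRCm38, with no role or order. The use of strand in counting is not given in the sources used here. Of the deposited values, 100% were whole multiples of the value of 1 read in their library (tolerance 0.01 reads), which gave back the reads. Coordinates, exonic lengths and shared windows of 60 nt come from GENCODE M21 (GRCm38), to which 12451 genes matched, and 78 genes had no symbol.

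A minimum of 1 CPM in 2 or more libraries left 12494 genes (34 were not tested). Their log2(CPM + 1) values were fitted in R 4.3.3 using limma 3.58.1, with all 4 groups in 1 fit, a mean-variance trend, no block and 4 residual degrees of freedom. Low genes are given by the ratio of summed reads, with an exact interval, where no library of the lower group had over 10 reads, or against a floor of 3 reads where all had 0. The members and gene lists were chosen with earlier results of these data known. Named besides the members are, per comparison, up to 3 largest rises and falls among Wnt-list genes past the threshold with a mean of at least 5 CPM and, except for the genotype difference, no overlap of libraries. Also named are the 2 genes most alike in level to each member, Cav1, and genes of a described role. Alternatives were other pseudocounts, filters, trend, normalizations, edgeR 4.0.16 on the recovered reads, a replicate block, the compared groups alone, and leaving out each library. The refit of the other pathway genes without the second Cav1KO stiff library was added after seeing the data.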

Additional observations from a re-analysis of the deposited data

Results flagged for a closer look

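The stiffness effect on Dkk3 differed between the genotypes by a test of the difference itself, with a value of -0.89 on the log2(CPM + 1) scale (SE 0.21, limma adjusted p = 0.0373). In WT cells the effect was -1.30 and in Cav1KO cells -0.41, where the libraries held 0 to 9 reads. With edgeR on the recovered reads the difference was 0.65 (adjusted p = 0.554), so its sign depends on the scale.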

How the results depend on the processing

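Of 712 recomputed values, 662 kept their direction and side of the threshold, 37 lost a call, 7 gained one and 6 changed sign. The difference in stiffness effect passed for Dkk3 in 8 of 17 alternatives, with values from -1.10 to 0.65. The count of members with a lower stiffness effect in WT went from 1 to 0 under a pseudocount of 0.25 and under edgeR, and ranged from 0 to 1 when 1 library was left out. The count with a higher effect went from 0 to 1 under a pseudocount of 5 and ranged from 0 to 2 when 1 library was left out. The sign changes were in Fzd2 in the genotype difference (-0.019 under median centring and -0.067 to 0.12 when 1 library was left out, below 0 without the second WT stiff or the second WT soft library), Sfrp2 (-3.49) and Dkk3 (0.65) in the genotype difference under edgeR, and Wnt5a between genotypes on stiff (-0.050 to 0.14 when 1 library was left out, below 0 without the first WT stiff library). Of these only the Dkk3 difference was a call before it changed sign. The cause was not tested. Sfrp1 in WT cells passed only without the mean-variance trend (adjusted p = 0.0459), and Fzd7 in Cav1KO cells only with quantile normalization (adjusted p = 0.0332).

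The replicate numbers are not tied to a shared day or culture, and the deviations of same-numbered libraries correlated across genes at -0.37 to 0.42 between groups. With a replicate block, 2 calls were lost, Dkk3 with stiffness in Cav1KO cells (-0.41, adjusted p = 0.0511) and Tcf7l2 between genotypes on stiff (-0.42, adjusted p = 0.0596), and the other calls on members were as without it. Low depth limits Sfrp2 in WT and Dkk3 in Cav1KO cells, where a count of 0 allows up to 3 reads.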
